A study of Homo sapiens with 42 samples.

Results

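The BCL2 family decides whether a stressed cell keeps or loses the outer membrane of its mitochondria. Pro-survival members (BCL2, BCL2L1, MCL1, BCL2A1) hold the membrane-permeabilizing effectors BAX and BAK1 in check. BH3-only members (BCL2L11, BMF, BBC3, PMAIP1) bind and neutralize the pro-survival proteins or activate the effectors, so that cytochrome c is released and caspases are switched on. The 10 genes described here were taken by name, as the rows of the count table whose gene name equalled a member, which gave 10 of the 57353 gene names in the table (4 pro-survival, 4 BH3-only and 2 effector genes). All 10 passed the filter on low counts, among 12939 genes tested.

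The cells were MOLM-13, 1 human acute myeloid leukemia (AML) line driven by an internal tandem duplication in the receptor tyrosine kinase FLT3, so the results describe a single line. Some cultures were kept in plain RPMI medium and others in hBMSC-CM, that is, filtered supernatant of the bone marrow stromal line HS-5 diluted in RPMI, so that no stromal cells were added. For 12 hours they received vehicle, the FLT3 inhibitor quizartinib (AC220, 3 nM), the mTORC1 inhibitor everolimus (10 nM) or both drugs (combo). RPMI had the vehicle, quizartinib and combo conditions and hBMSC-CM all 4, which makes 7 conditions of 3 cultures, and from each of the 21 cultures poly(A) RNA of the whole lysate (input) and of the heavy polysome fraction, taken after cycloheximide had frozen ribosomes on their messages, was sequenced. No RPMI arm with everolimus alone was analysed. Levels are CPM values (counts scaled to a common library total) adjusted with TMM factors. They are shares of a library, so a change in total RNA does not show in them. The authors harvested the same number of cells from each treatment group. They reported less RNA under quizartinib and combo, with a larger fall in polysomes than in input.

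Library totals were 19.4 to 38.8 M counts over 42 libraries. Of 9 AML marker genes, 8 had counts in every condition (CD14 had none in 1), and the summed input level of the 9 was 258 to 442 CPM under vehicle and everolimus and 440 to 796 CPM under quizartinib and combo. Of 12 stromal marker genes, COL3A1, THY1 and LUM had no count in any input library. The summed stromal level was 2.82 to 7.31 CPM under vehicle and everolimus in either medium but 10.1 to 40.3 CPM under quizartinib and combo, also in RPMI, which holds no stromal medium, and COL1A1 ranged from 0.151 to 32.9 CPM. Within each medium both sums were higher with quizartinib or combo than without, although quizartinib in RPMI called 4 of the 9 AML markers higher and 1 lower, and their part in the results was not tested.

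Compared per kilobase of each gene's canonical transcript, BAX had the highest mean in every condition, at 198 to 271 input CPM per kb. This order depends on the length used: BAX has a canonical transcript of 0.795 kb but 2.587 kb of exons in all, and per kb of all exons BMF stood above it in RPMI quizartinib (84.0 against 67.5) and RPMI combo (87.8 against 60.8). MCL1 came second in vehicle cultures, at 34.0 CPM per kb in RPMI and 37.3 in hBMSC-CM. BMF, at 6.36 CPM per kb in RPMI vehicle, stood at 97.5 under quizartinib and at 102 under combo in the same medium, above MCL1. PMAIP1 had the lowest mean per canonical kb in each of the 7 conditions, from 1.33 to 3.67 CPM, but per kb of all exons BCL2A1 was lower in RPMI vehicle (2.95 against 3.19) and RPMI combo (2.02 against 2.07). Counts were low for 2 members, PMAIP1 with 57 to 339 and BCL2A1 with 40 to 630 input counts a library, whereas each other member had at least 391.

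**Figure D1:**
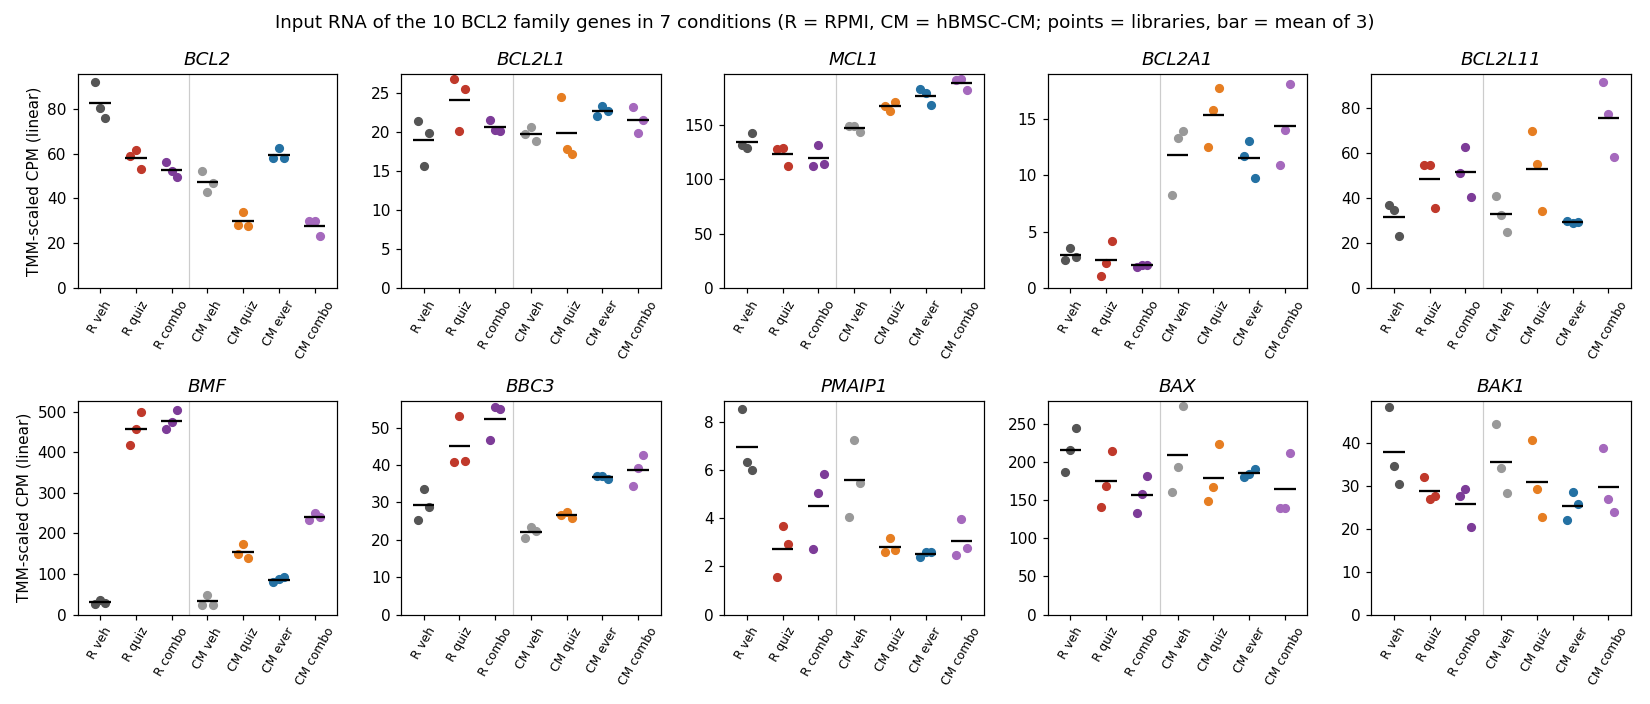
Input level of each member in TMM-scaled CPM (linear axis from 0), 1 panel a gene, with the 7 conditions on the x axis, 1 point a culture and a bar at the mean of 3. BMF separates vehicle from quizartinib and combo cultures, BCL2A1 separates the media, and BCL2 is highest in RPMI vehicle.

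Input RNA was compared in 7 ways, and these comparisons and the difference between media in the quizartinib effect were tested with edgeR over all 12939 genes at an adjusted p under 0.05. Quizartinib against vehicle in RPMI changed 3 of 10 members (1 higher, 2 lower), where 34.6% of all genes changed (16.6% higher, 18.0% lower). In hBMSC-CM quizartinib changed 2 (1 higher, 1 lower) against 12.3% of all genes (5.46% higher, 6.84% lower). Without drug, hBMSC-CM against RPMI changed 2 members (1 higher, 1 lower) and 1.51% of all genes (1.30% higher, 0.209% lower). Under quizartinib it changed 3 (1 higher, 2 lower) and 8.16% of all genes (6.11% higher, 2.05% lower). The quizartinib effect differed between media for 1 member, which was lower in hBMSC-CM, and for 1.96% of all genes (1.79% higher, 0.178% lower). Everolimus in hBMSC-CM raised 1 member (0.410% of genes changed, 0.224% higher), and adding everolimus to quizartinib changed 0 in RPMI (0.00773% of genes) and 0 in hBMSC-CM (0.240%). At an unadjusted p under 0.05 these last counts were 1 and 1, and limma voom and DESeq2 also called 0 members in both. The share of all genes at that unadjusted threshold is not given here, so these counts are not read as a result about the members. Replicates did not overlap for 5, 5, 4, 5, 0, 3 and 6 members in these 7 comparisons (quizartinib in RPMI, quizartinib in hBMSC-CM, medium without drug, medium under quizartinib, combo in RPMI, combo in hBMSC-CM, everolimus), as for 55.7%, 34.1%, 16.2%, 29.8%, 7.60%, 14.7% and 27.7% of all genes. The median log2 change of the 10 members under quizartinib was -0.18 in RPMI and 0.10 in hBMSC-CM, beside 0.08 and 0.01 over all genes.

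Cultures with the same replicate number deviated together in all of these comparisons except those with everolimus alone, so a second fit held the replicate number as a block within each fraction (the blocked fit). It called 6 members for quizartinib in RPMI (48.9% of all genes), 4 for quizartinib in hBMSC-CM (29.4%), 5 for hBMSC-CM under quizartinib (17.6%) and the same number as before for hBMSC-CM without drug (4.52%). Members whose call rested on that fit are named beside their values.

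BCL2 (ENSG00000171791, chromosome 18, 63123346 to 63320128, minus strand, GRCh38), the founding anti-apoptotic member and the target of venetoclax, was lower both with quizartinib and with hBMSC-CM. In RPMI the vehicle cultures had 92.0, 80.3 and 75.8 CPM and the quizartinib cultures 59.1, 61.7 and 52.9. In hBMSC-CM the vehicle cultures had 52.1, 43.0 and 47.1 and the quizartinib cultures 27.9, 33.8 and 27.6. Every quizartinib culture lay below every vehicle culture of its medium, and every hBMSC-CM culture below every RPMI culture of the same treatment. Quizartinib lowered BCL2 by a log2 change of -0.51 (SE 0.16, adjusted p = 0.013) in RPMI and -0.67 (SE 0.16, adjusted p = 0.0056) in hBMSC-CM. The fall in RPMI was no longer called without RPMI vehicle replicate 1 (-0.43, adjusted p = 0.071) or without RPMI quizartinib replicate 3 (-0.45, adjusted p = 0.054), with library size only (-0.44, adjusted p = 0.058) or with no filter on low counts (-0.49, adjusted p = 0.27). hBMSC-CM lowered it by -0.80 (SE 0.16, adjusted p = 0.0030) in vehicle cultures and -0.96 (SE 0.16, adjusted p = 7.6e-05) under quizartinib. The calls for quizartinib in hBMSC-CM and for hBMSC-CM in vehicle cultures were lost with no filter (adjusted p = 0.18 and 0.14) and with only the groups compared (adjusted p = 0.050 and 0.059). Everolimus cultures had 57.9, 62.3 and 58.1 CPM, all above the vehicle cultures of that medium, yet the change of 0.33 (SE 0.16) did not pass the test (adjusted p = 0.58). Ordered by mean, the 7 conditions ran from hBMSC-CM combo (27.8 CPM) to RPMI vehicle (82.7 CPM), and 4 of the 6 neighbouring pairs overlapped.

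MCL1 (chromosome 1, 150560895 to 150579738, minus strand), a short-lived pro-survival protein was called in no input comparison by the unblocked fit. RPMI cultures had 131, 129 and 143 CPM with vehicle and 128, 129 and 112 with quizartinib, a log2 change of -0.13 (SE 0.16, adjusted p = 0.58). hBMSC-CM cultures had 149, 149 and 144 with vehicle and 168, 163 and 171 with quizartinib. All hBMSC-CM cultures lay above the RPMI cultures of the same treatment. Under quizartinib the difference between media was 0.44 (SE 0.16, adjusted p = 0.093), which did not pass the test. The blocked fit called it at 0.45 (adjusted p = 0.018), and DESeq2 also did (adjusted p = 0.036). The highest mean, 189 CPM, was that of hBMSC-CM combo. Exons of ADAMTSL4 on the opposite strand and of ADAMTSL4-AS1 on the same strand overlap MCL1, and the sources used here do not say if counting was strand-specific.

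BCL2L1 (chromosome 20, 31664452 to 31723989, minus strand), which encodes BCL-xL, had condition means between 19.05 and 24.2 CPM, and all 6 neighbouring pairs in their order overlapped. None of the 8 input comparisons called it. Its log2 changes ran from -0.34, in the difference between media, to 0.35 (SE 0.32, adjusted p = 0.44) for quizartinib in RPMI. Exons of ABALON overlap it on the opposite strand.

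BCL2A1 (chromosome 15, 79960892 to 79971196, minus strand), a pro-survival member that inflammatory and cytokine signals are known to induce, was low in RPMI and higher in hBMSC-CM whatever the drug. RPMI vehicle cultures had 2.52, 3.55 and 2.73 CPM and hBMSC-CM vehicle cultures 8.30, 13.3 and 13.9. Under quizartinib the values were 1.09, 2.24 and 4.18 in RPMI and 12.5, 15.8 and 17.8 in hBMSC-CM. The 9 RPMI cultures and the 12 hBMSC-CM cultures did not overlap. hBMSC-CM raised BCL2A1 4.03-fold without drug (log2 2.01, SE 0.49, adjusted p = 0.022) and 6.12-fold under quizartinib (log2 2.61, SE 0.50, adjusted p = 0.00040). Without drug, leaving out any 1 of 5 of the 6 cultures lost the call (log2 1.91 to 2.21 over all 6, adjusted p 0.014 to 0.13), whereas under quizartinib no left-out culture did. Neither quizartinib nor everolimus moved it past the test within hBMSC-CM, with log2 changes of 0.38 (SE 0.47) and -0.04 (SE 0.47). The 300 bases around its RefSeq start (GRCh38.p14, chr15:79971147-79971446, minus strand) are shown because this member separated the media; capitals mark the letters TTCNNNGAA, a palindrome that STAT factors are known to bind, at 168 bases before the start.
BCL2A1: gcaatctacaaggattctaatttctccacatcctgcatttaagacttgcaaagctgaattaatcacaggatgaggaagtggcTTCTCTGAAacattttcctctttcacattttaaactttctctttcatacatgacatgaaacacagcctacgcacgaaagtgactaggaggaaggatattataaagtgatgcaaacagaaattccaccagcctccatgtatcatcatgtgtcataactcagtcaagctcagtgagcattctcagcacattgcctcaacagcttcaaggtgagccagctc
No other member promoter searched held these letters, while 7.66% of 35116 RefSeq promoters of the same length did. A match is a description of the letters and not evidence of binding.

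BMF (chromosome 15, 40087890 to 40108892, minus strand), a BH3-only gene that is known to be held at the cytoskeleton through dynein light chains, showed the largest change of any member. In RPMI the vehicle cultures had 25.1, 37.0 and 27.4 CPM, the quizartinib cultures 417, 457 and 500 and the combo cultures 457, 474 and 503. In hBMSC-CM the vehicle cultures had 24.6, 49.4 and 24.4 CPM, the everolimus cultures 79.1, 87.3 and 91.7, the quizartinib cultures 150, 174 and 139 and the combo cultures 232, 249 and 240. No treated culture overlapped the vehicle cultures of its medium, and the quizartinib cultures of the 2 media did not overlap either.
Quizartinib raised BMF 15.4-fold in RPMI (log2 3.94, SE 0.35, adjusted p = 9.8e-11) and 4.71-fold in hBMSC-CM (log2 2.24, SE 0.33, adjusted p = 2.8e-05). Both calls held under every alternative and with any culture left out (log2 3.83 to 4.13 and 2.05 to 2.66 over the left-out cultures). The rise was smaller in hBMSC-CM by a log2 difference of -1.70 (SE 0.45, adjusted p = 0.032). This difference kept its sign but lost its call in 7 of 12 left-out cultures (-1.89 to -1.28, adjusted p 0.013 to 0.11), and was smallest without hBMSC-CM vehicle replicate 2, which had 49.4 CPM. Vehicle cultures of the 2 media overlapped (log2 difference 0.14, SE 0.31), and under quizartinib hBMSC-CM held BMF at 0.337 times its RPMI level (log2 -1.57, SE 0.32, adjusted p = 0.00081).
Everolimus alone raised BMF 2.62-fold over vehicle (log2 1.39, SE 0.32, adjusted p = 0.036), a call that was lost without 5 of the 6 cultures in turn (log2 1.19 to 1.81, adjusted p 0.0026 to 0.21). The everolimus libraries stood apart from the rest in their replicates: same-numbered libraries did not deviate together with those of vehicle (r -0.01 to 0.00 in input), and the SD of polysome minus input was lowest under everolimus for 8 of 10 members. How these libraries were made is not given in the sources used here, and its part in the everolimus changes was not tested. The 3 hBMSC-CM combo cultures lay above the 3 quizartinib cultures, but the change of 0.64 (SE 0.31) did not pass the test (adjusted p = 0.81). Adding everolimus in RPMI gave 0.06 (SE 0.31). Exons of BMF-AS1 overlap BMF on the opposite strand, so with strand not stated its reads could be counted with it.
RefSeq lists 2 starts for BMF, and neither 300-base stretch held the FOXO letters GTAAACA, the STAT letters TTCNNNGAA or the E-box CACGTG on either strand, which says only that these letters are not in these windows. The upstream one (GRCh38.p14, chr15:40108830-40109129, minus strand) is shown because this gene changed most, all in lower case.
BMF: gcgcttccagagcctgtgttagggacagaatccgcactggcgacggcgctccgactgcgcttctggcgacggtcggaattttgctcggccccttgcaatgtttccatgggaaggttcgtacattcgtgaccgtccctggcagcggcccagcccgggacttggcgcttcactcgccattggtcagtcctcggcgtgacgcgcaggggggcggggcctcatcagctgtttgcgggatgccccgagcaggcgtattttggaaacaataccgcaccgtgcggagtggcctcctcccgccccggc

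BCL2L11 (chromosome 2, 111119378 to 111168444, plus strand) encodes BIM, a BH3-only protein that binds all pro-survival members and whose gene is a known target of FOXO factors. In RPMI it stood at 37.1, 34.7 and 23.2 CPM with vehicle and 54.6, 54.7 and 35.7 with quizartinib. In hBMSC-CM it stood at 41.1, 32.6 and 25.2 with vehicle, 70.1, 55.0 and 34.2 with quizartinib and 91.7, 77.6 and 58.1 with combo. Replicate 3 was the lowest culture in 6 of the 7 conditions, which made vehicle and quizartinib cultures overlap in both media. The log2 changes of 0.61 (SE 0.26, adjusted p = 0.071) in RPMI and 0.69 (SE 0.26, adjusted p = 0.080) in hBMSC-CM did not pass the test. The blocked fit called both, at 0.61 (SE 0.16, adjusted p = 0.0014) and 0.67 (SE 0.16, adjusted p = 0.0014). DESeq2 called the RPMI rise (adjusted p = 0.045), as did edgeR with only genes of at least 10 CPM (0.036) or without RPMI quizartinib replicate 3 (0.030). With library size only both were called (adjusted p = 0.030 and 0.045). The hBMSC-CM rise was also called without hBMSC-CM quizartinib replicate 3 (adjusted p = 0.021). Limma voom and RLE factors called neither. Combo against quizartinib in hBMSC-CM gave 0.51 (SE 0.26, adjusted p = 0.86), and everolimus against vehicle -0.16 (SE 0.26). Exons of MIR4435-2HG overlap this gene on the opposite strand. The promoter (GRCh38.p14, chr2:111120664-111120963, plus strand) is shown because it alone among the 11 member promoters held the FOXO letters GTAAACA (capitals, 223 bases before the start), which 3.42% of all promoters held.
BCL2L11: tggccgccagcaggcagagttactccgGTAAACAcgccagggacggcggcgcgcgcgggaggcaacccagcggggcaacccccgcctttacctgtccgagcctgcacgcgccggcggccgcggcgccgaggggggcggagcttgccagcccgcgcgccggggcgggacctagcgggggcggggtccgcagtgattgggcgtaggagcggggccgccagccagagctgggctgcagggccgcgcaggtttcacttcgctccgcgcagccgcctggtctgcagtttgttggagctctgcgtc

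BBC3 (chromosome 19, 47220822 to 47232766, minus strand) encodes PUMA, a BH3-only protein best known as a p53 target. Its RPMI cultures had 25.4, 33.7 and 28.7 CPM with vehicle and 40.8, 53.2 and 40.9 with quizartinib, and its hBMSC-CM cultures 20.3, 23.4 and 22.2 with vehicle and 26.6, 27.4 and 25.8 with quizartinib. Quizartinib cultures lay above vehicle cultures in both media without overlap, but the changes of 0.62 (SE 0.33, adjusted p = 0.14) and 0.28 (SE 0.33, adjusted p = 0.64) did not pass the test. In the blocked fit the RPMI change passed (0.62, SE 0.19, adjusted p = 0.0068), as it did with only the groups compared (0.58, adjusted p = 0.017). Under quizartinib hBMSC-CM cultures lay below all RPMI cultures, at -0.76 (SE 0.33, adjusted p = 0.19), which the blocked fit called (-0.75, SE 0.19, adjusted p = 0.0043). It was also called with only the groups compared (-0.74, adjusted p = 0.023). Everolimus cultures, at 37.0, 37.1 and 36.2 CPM, were all above vehicle (0.74, SE 0.33, adjusted p = 0.48). Exons of the microRNA genes MIR3190 and MIR3191 overlap BBC3.

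PMAIP1 (chromosome 18, 59899996 to 59904305, plus strand) encodes NOXA, a BH3-only protein that binds MCL1 and BCL2A1. It went the other way from BMF under quizartinib. RPMI cultures had 8.54, 6.36 and 6.01 CPM with vehicle and 1.56, 3.68 and 2.93 with quizartinib, a fall to 0.392 times (log2 -1.35, SE 0.36, adjusted p = 0.0029) that held under every alternative that tested the gene and with any culture left out. In hBMSC-CM the vehicle cultures had 4.05, 7.25 and 5.45 and the quizartinib cultures 2.59, 3.16 and 2.69. These did not overlap, and the change of -0.98 (SE 0.35) missed the threshold (adjusted p = 0.062). The blocked fit (-0.95, adjusted p = 0.028), limma voom (adjusted p = 0.047) and DESeq2 (adjusted p = 0.046) called it. Everolimus cultures, at 2.39 to 2.61 CPM, were also all below vehicle (-1.14, SE 0.36, adjusted p = 0.17).

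The effector BAX (chromosome 19, 48954815 to 48961798, plus strand) had 187, 216 and 244 CPM in RPMI vehicle and 141, 169 and 214 in RPMI quizartinib, which overlapped. Replicate 3 was its highest culture in all 7 conditions. The change of -0.30 (SE 0.20, adjusted p = 0.25) did not pass the test, and the blocked fit called it at -0.32 (SE 0.13, adjusted p = 0.037). In hBMSC-CM it was -0.22 (SE 0.20, adjusted p = 0.52). BAK1 (chromosome 6, 33572547 to 33580293, minus strand), the effector that resides in the mitochondrial membrane, ranged from a mean of 25.3 CPM under everolimus to 37.7 in RPMI vehicle. All neighbouring pairs in the order of both effectors overlapped, and no input comparison called either gene. BAK1 has 2 annotated pseudogenes that could share its reads, and GGNBP1 overlaps its exons on the opposite strand. The BAX promoter (GRCh38.p14, chr19:48954625-48954924, plus strand) is shown because its letters set it apart: it held the E-box CACGTG (capitals), which MYC and related factors are known to bind, 4 times, all before the start, where 7.26% of all promoters held it at all. Of the other member promoters only that of BBC3 held it, once, 232 bases before the start.
BAX: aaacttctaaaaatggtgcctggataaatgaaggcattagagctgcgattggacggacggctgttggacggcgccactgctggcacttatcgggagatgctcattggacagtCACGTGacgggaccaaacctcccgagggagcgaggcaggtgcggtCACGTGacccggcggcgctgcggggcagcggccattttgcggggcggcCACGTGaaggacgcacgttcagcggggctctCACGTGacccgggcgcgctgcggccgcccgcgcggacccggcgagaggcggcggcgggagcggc

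Heavy polysome RNA was next set against input RNA of the same condition, as a log2 difference of TMM-scaled levels. The fit compared group means, while values by culture match the 2 libraries of a condition by replicate number. Same-numbered input and polysome libraries deviated together (every r over 0.1) in 3 of the 7 conditions only. A positive value means that a message took a larger share of the heavy polysome library than of the input library. Over the mean of the 7 conditions 9 of 10 members differed from 0 (6 higher, 3 lower), where 86.2% of all genes did (42.1% higher, 44.1% lower), so the share of members called was near the background. The median over the members was 0.43, beside -0.03 over all genes. Both effectors were higher, BAK1 at 1.35 (SE 0.16) and BAX at 0.53 (SE 0.07). Among BH3-only genes BBC3 at 1.18 (SE 0.12) and BMF at 0.81 (SE 0.12) were higher, and PMAIP1 at -0.85 (SE 0.14) and BCL2L11 at -0.54 (SE 0.10) were lower. Of the pro-survival genes BCL2L1 was higher at 0.93 (SE 0.12), MCL1 higher at 0.34 (SE 0.06; 0.11 and not called, adjusted p = 0.067, with only genes of at least 10 CPM) and BCL2 lower at -0.95 (SE 0.06). BCL2A1 at -0.08 (SE 0.18, adjusted p = 0.67) did not differ. The 9 adjusted p-values were at most 6.8e-06.

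The scaling sets the zero of these differences. Scaling by library size alone moved the median of all genes by -0.41. With it MCL1 turned to -0.076 (adjusted p = 0.26) and BAX to 0.12 (adjusted p = 0.15), while the other 7 called members kept their sign and their call. BCL2A1, not called with TMM factors, was called lower with library size alone, at -0.48 (adjusted p = 0.023). BAK1, BBC3, BCL2L1 and BMF were above 0 and BCL2, PMAIP1 and BCL2L11 below 0 under each scaling tried. BCL2 was below 0 in each of the 21 cultures (-1.45 to -0.40) and BCL2L11 too (-1.17 to -0.08), and BMF, BBC3 and BAK1 were above 0 in each (0.20 to 1.37, 0.38 to 1.88 and 0.21 to 2.20). Within a condition replicate 2 was the highest culture in 6 of 7 conditions for BCL2L1, BBC3 and BAK1 and in 5 of 7 for BMF. Without RPMI quizartinib replicate 2 the difference of BCL2L1 in that condition fell from 0.87 to 0.21 (adjusted p = 0.65).

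**Figure D2:**
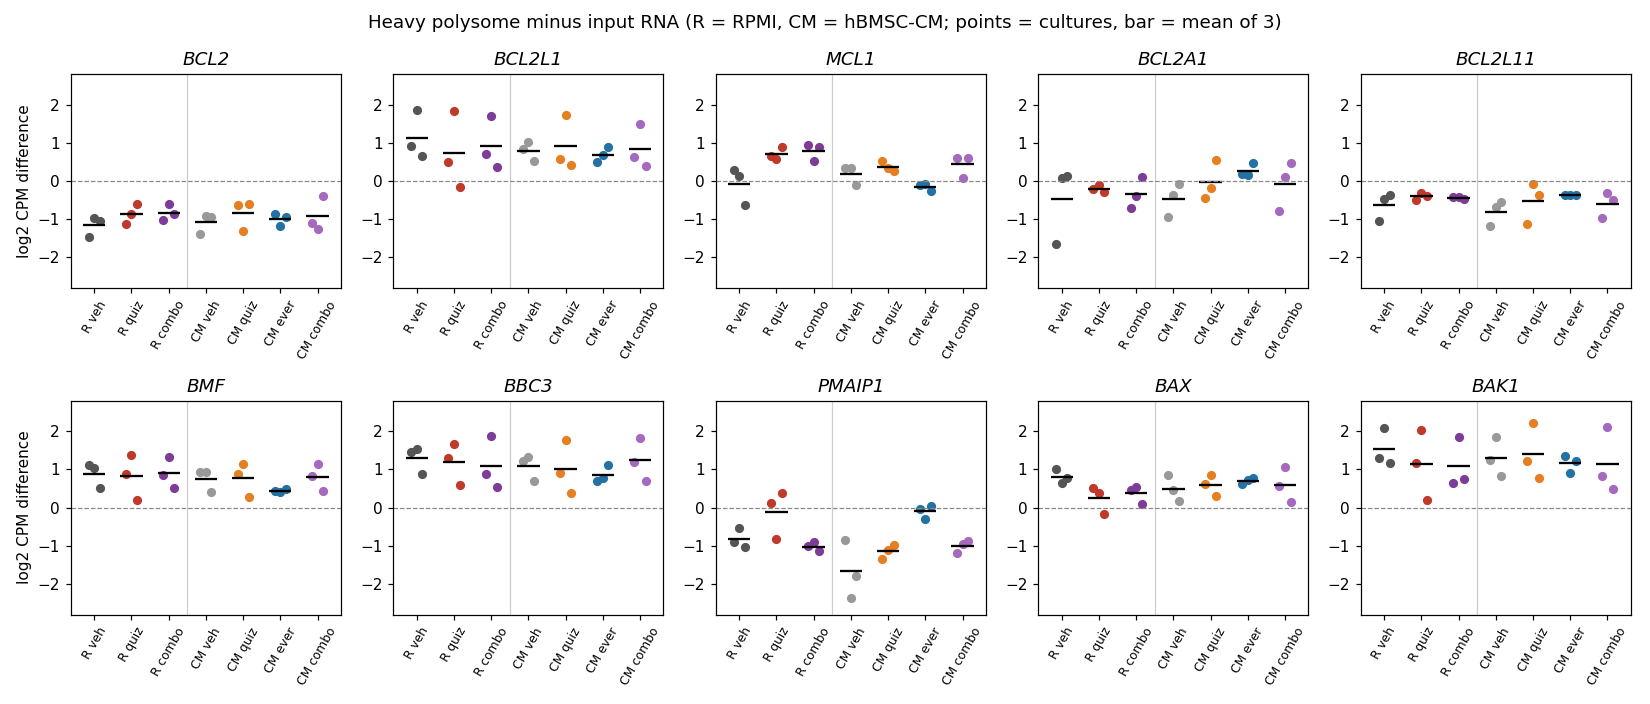
Heavy polysome minus input (log2, TMM-scaled) of each member, 1 point a culture and a bar at the mean of 3 in each of 7 conditions, with 0 as a dashed line. BCL2 and BCL2L11 lie below 0 and BAK1, BBC3 and BMF above 0 in every culture. MCL1, BCL2A1 and PMAIP1 have cultures on both sides of 0. BCL2L1 and BAX lie below 0 only in RPMI quizartinib replicate 3 (-0.15 and -0.17).

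Whether treatment moved this difference was asked with the interaction of fraction and treatment: how far the change in the heavy polysome exceeded that in input. No member was called by edgeR in any of the 8 comparisons. At an unadjusted p under 0.05 the counts were 2 for quizartinib in RPMI (MCL1 and BAX), 1 for hBMSC-CM under quizartinib, 1 for everolimus and 0 elsewhere. With no share of all genes at that threshold given here, they are not read as a result about the members. Limma voom and DESeq2 called 0 members in each. For quizartinib in RPMI 1.55% of all genes were called (0.278% higher, 1.28% lower), and in the other 7 comparisons 0 genes were called by edgeR.

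MCL1 came closest. Its polysome minus input values were 0.28, 0.14 and -0.62 in RPMI vehicle, 0.65, 0.58 and 0.90 in RPMI quizartinib and 0.95, 0.52 and 0.89 in RPMI combo. In hBMSC-CM they were 0.33, 0.36 and -0.10 with vehicle, 0.52, 0.33 and 0.25 with quizartinib, -0.11, -0.09 and -0.26 with everolimus and 0.61, 0.08 and 0.62 with combo. In RPMI all quizartinib and combo cultures lay above all vehicle cultures, which 19.8% of all genes did in either direction for quizartinib, while in hBMSC-CM vehicle and quizartinib cultures overlapped. The quizartinib change was 0.74 (SE 0.23, adjusted p = 0.095) in RPMI and 0.16 (SE 0.23) in hBMSC-CM, and the test of the difference between them gave -0.58 (SE 0.32, unadjusted p = 0.081 in the edgeR fit, adjusted p = 1). In the blocked fit the RPMI change was called (0.76, SE 0.19, adjusted p = 0.0089, with 11.7% of all genes called), as it was with library size alone (1.00, adjusted p = 0.030). With a block for each culture, which ties its input to its polysome library, it was not called (0.77, SE 0.25, adjusted p = 0.14). With each culture left out in turn the change ran from 0.50 to 0.92 (adjusted p 0.066 to 0.58), and it was smallest without RPMI vehicle replicate 3, the culture at -0.62.

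BAX moved the other way in RPMI, by -0.58 (SE 0.28, adjusted p = 0.30), with all quizartinib cultures below all vehicle cultures, and the blocked fit called it (-0.57, SE 0.18, adjusted p = 0.033). It was not called with a block shared by both fractions (adjusted p = 0.13) or with a block for each culture (adjusted p = 0.31). For PMAIP1 the everolimus cultures, at -0.03, -0.30 and 0.04, lay above the vehicle cultures, at -0.84, -2.37 and -1.79, a difference of 1.62 (SE 0.51, adjusted p = 1) that rests on 30 to 51 polysome counts a library with vehicle and 47 to 83 with everolimus. Cultures did not overlap in this comparison for 3 of 10 members and for 18.1% of all genes, and the everolimus libraries do not pair with vehicle by number. BMF, for all its change in input, had interaction values of -0.05 (SE 0.44) for quizartinib in RPMI and 0.02 (SE 0.44) in hBMSC-CM: its mean polysome level was 56.6 CPM with vehicle and 841 with quizartinib in RPMI, and 57.9 and 276 in hBMSC-CM. BCL2A1 likewise stood at a mean of 2.53 polysome CPM in RPMI vehicle and 9.29 in hBMSC-CM vehicle, with an interaction of -0.15 (SE 0.68).

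**Figure D3:**
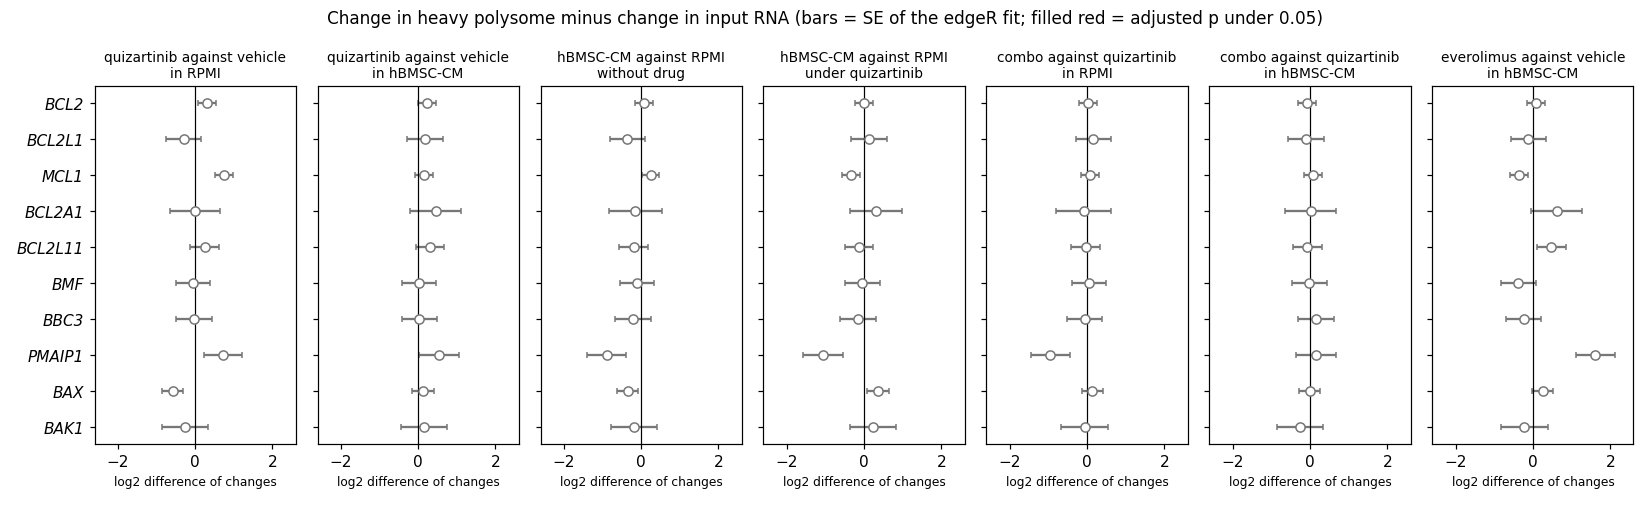
Change in heavy polysome minus change in input (log2) of each member in 7 comparisons, with the SE of the edgeR fit as bars; open grey points did not reach an adjusted p under 0.05. All points are open, and the farthest from 0 are PMAIP1 under everolimus (1.62) and PMAIP1 for hBMSC-CM under quizartinib (-1.07).

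Other genes of the pathway were taken from 3 hand-written lists. Of 13 further BCL2 family genes 8 passed the filter. Quizartinib in RPMI raised 3 of them, BNIP3L at 1.75 (SE 0.28), BAD at 0.58 (SE 0.22) and BCL2L13 at 0.37 (SE 0.15), and lowered BID, the BH3-only link from death receptors to mitochondria, by -1.59 (SE 0.18). Their median was 0.44, beside 0.08 over all genes. In hBMSC-CM quizartinib lowered 2, BCL2L12 at -0.80 (SE 0.21) and BID at -0.77 (SE 0.18), and raised 0. Of 22 genes that act after the outer membrane opens or restrain caspases 21 were tested. In RPMI 3 rose, BIRC2, CASP9 and CFLAR at 0.92, 0.80 and 0.72, and 6 fell, led by CYCS, which encodes cytochrome c, at -2.39 (SE 0.34) and the mitochondrial pore gene VDAC1 at -1.64 (SE 0.18). The 4 of 8 and 9 of 21 called in RPMI stand beside 34.6% of all genes, and the 2 of 8 and 4 of 21 in hBMSC-CM beside 12.3%. In hBMSC-CM the called genes were CASP9 at 0.64, CFLAR at 0.59, CYCS at -1.41 (SE 0.33) and VDAC1 at -0.93 (SE 0.18). CYCS and VDAC1 also serve respiration and metabolite exchange. Of 6 genes whose products bind or turn over members, quizartinib in RPMI lowered DYNLL2, a dynein light chain that binds BMF, at -0.92 (SE 0.21), and the other 5 were not called. No gene of the 3 lists was called in input for hBMSC-CM against RPMI, combo against quizartinib or everolimus against vehicle.

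In polysome minus input over the 7 conditions 86.2% of all genes were called, and so were 7 of 8, 18 of 21 and 5 of 6 genes of these lists. The further family members split 5 higher to 2 lower, from BIK at 1.40 (SE 0.14) to BNIP3L at -1.06 (SE 0.10). The downstream genes split 9 to 9, from ENDOG at 1.70 (SE 0.10) to the caspase-restraining ubiquitin ligases BIRC2 at -2.28 (SE 0.14), BIRC6 at -1.88 (SE 0.14) and XIAP at -1.28 (SE 0.08). The genes that act on members split 2 to 3, with the dynein light chains DYNLL2 at 0.80 (SE 0.08) and DYNLL1 at 0.29 (SE 0.12) higher. On the lower side USP9X, which removes ubiquitin from MCL1, stood at -1.31 (SE 0.11), and the ligases FBXW7 and HUWE1, which mark MCL1 for breakdown, at -1.07 (SE 0.13) and -0.63 (SE 0.08). No list gene was called in any polysome comparison between treatments.

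Across the 21 input libraries, which fall into 7 conditions of 3 and in part deviate together by replicate number, the pattern of BMF was most like those of AKNA, PIK3IP1 and CUTALP (Pearson r of log2 CPM 0.99, 0.98 and 0.98 among the 8426 other genes of at least 10 CPM). BCL2A1 was most like OSM, HBEGF and SMOX (0.98, 0.96 and 0.96), BCL2 like CLNS1A (0.95), MCL1 like EMILIN2 (0.93), BCL2L11 like ZNF558 (0.94), BBC3 like RBM22 (0.91), BAX like AURKAIP1 (0.95), BAK1 like VDAC2 (0.90), PMAIP1 like SDHD (0.84) and BCL2L1 like HAUS4 (0.78). Between members the 45 correlations ran from -0.77 (BCL2L11 with BAX) to 0.82 (MCL1 with BCL2A1). BMF and BBC3 stood at 0.81, BMF and BCL2L11 at 0.62 and BCL2 and BCL2A1 at -0.66.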

How the data were processed

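RNA-seq of 42 MOLM-13 libraries was analysed. The authors prepared poly(A) libraries, read them in pairs, trimmed reads with BBDuk, and aligned them to hg38 (Ensembl release 96) with STAR 2.6.0a. They deposited raw counts by gene, and use of strand is not given in the sources used here. Rows sharing a gene name were summed, and 12939 genes whose mean count and mean CPM both reached 1 were kept. All 42 libraries entered 1 robust quasi-likelihood fit of 14 group means in edgeR 4.0.16 (R 4.3.3) with TMM factors, no block and Benjamini-Hochberg adjustment at 0.05. Log2 CPM used a prior count of 2. Polysome comparisons were interactions with the fraction. Alternatives were limma voom (limma 3.58.1), DESeq2 1.42.0, other scalings and filters, fewer groups, replicate blocks and each culture left out.

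Replicate numbers came from the sample labels. Deviations of same-numbered libraries from their group means correlated at 0.16 or more in every pair within each fraction, except in the everolimus comparisons (-0.09 to 0.03), so the numbers were taken to pair the former only. The pairing was least clear in the polysome libraries of RPMI combo and RPMI quizartinib. There libraries of unlike number reached 0.21, above the lowest same-number value of 0.16. Between input and polysome all 3 same-number correlations exceeded 0.1 in 3 of 7 conditions. The authors describe their replicates as biological. How the cultures were set up is not given in the sources used here, so p-values measure the spread between these samples. In simulated data 95 of 100 genes changed 2-fold were recovered for input and 63 of 100 for polysome minus input. The simulated counts varied less between replicates than the real ones, whose common biological coefficient of variation was 0.279. They also held no effect of replicate number. They covered only the RPMI vehicle and quizartinib libraries, with 100 of 12939 genes changed at each fold tried. These shares are therefore neither the recovery in these data nor a limit on it.

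The 10 members were named by the rule given above and all are described. The members and the gene lists were chosen with earlier results of these data known. Gene positions and lengths came from GENCODE v44 (GRCh38), another release than the authors', and promoters from RefSeq (GRCh38.p14), which matched 9 members. The MCL1 promoter and protein sequences were not used here.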

Additional observations from a re-analysis of the deposited data

Results flagged for a closer look

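The rise of BMF under quizartinib differed between the media by a log2 value of -1.70 (hBMSC-CM minus RPMI, SE 0.45, adjusted p = 0.032 by edgeR), tested as the interaction of medium and drug. It was 3.94 in RPMI and 2.24 in hBMSC-CM, and all 3 quizartinib cultures of hBMSC-CM were below all 3 of RPMI. That lack of overlap concerns the quizartinib cultures alone. The call for the difference was lost with several single cultures left out, for example hBMSC-CM vehicle replicate 2 (-1.28, adjusted p = 0.10 by edgeR).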

How the results depend on the processing

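The calls for BMF under quizartinib in both media, PMAIP1 in RPMI, and BCL2, BCL2A1 and BMF between media under quizartinib held under every alternative that tested them. Of 183 values for the 12 called input changes, 157 kept their call, 26 lost it and 0 changed sign. With the replicate number as a block, quizartinib called 5 members in RPMI and 4 in hBMSC-CM, and hBMSC-CM under quizartinib 5. The share of all genes called under that block is not given here. As a block within each fraction the counts were 6, 4 and 5, beside 48.9%, 29.4% and 17.6% of all genes. The blocks changed no other input call in comparisons between paired conditions. For everolimus, whose numbers do not pair the cultures, the block within each fraction called 3 members and 5.22% of all genes. With no block 0.410% of all genes were called. In polysome minus input for quizartinib in RPMI the counts were 1 and 2 under these blocks, 0 with a replicate block per culture and 1 with library size only. With no filter on low counts and with only the groups compared, 1 member was called for quizartinib in hBMSC-CM and 1 for hBMSC-CM without drug (BCL2 was lost in each), where the stricter filter, which does not test BCL2A1, also left 1. Everolimus called 0 members with only the groups compared. The cause was not tested. Over left-out cultures the counts were 2 to 3 for quizartinib in each medium, 1 to 2 for hBMSC-CM without drug, 3 to 3 under quizartinib, 0 to 1 for everolimus and for the difference between media, 0 to 0 for combo and for polysome changes, and 9 to 9 for the mean of polysome minus input.

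MCL1 changed sign in polysome minus input. With library size only it was -0.076 over the 7 conditions, -0.32 in hBMSC-CM vehicle and -0.072 in hBMSC-CM quizartinib, and BAX in hBMSC-CM vehicle was -0.048. In RPMI vehicle MCL1, at -0.03, became 0.11 with DESeq2 and with RLE factors, 0.012 with no filter and -0.21 to 0.21 over left-out cultures (0.21 without replicate 3), and in hBMSC-CM vehicle -0.018 with the stricter filter. The cause was not tested. Counts of PMAIP1 and BCL2A1 limit what can be seen in their polysome values.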
